A study of Mus musculus with 2 samples.

Results

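The 10 genes described here encode G1 cyclins and CDK inhibitors of mouse liver cells, and they were taken by symbol from the 32285 genes shared by both single-cell libraries. They are the D-type cyclins Ccnd1, Ccnd2 and Ccnd3, the E-type cyclins Ccne1 and Ccne2, the Cip/Kip inhibitors Cdkn1b and Cdkn1c, and the INK4 inhibitors Cdkn2a, Cdkn2b and Cdkn2c. All 10 had UMIs in both libraries.

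D-type cyclins bind CDK4 and CDK6 after growth signals and begin the phosphorylation of the retinoblastoma protein RB, which releases E2F transcription factors. E-type cyclins bind CDK2 and carry the cell into S phase. INK4 inhibitors act on CDK4 and CDK6, and Cip/Kip inhibitors act chiefly on CDK2 complexes. Hepatocytes of the resting liver are mostly outside the cycle, and induction of cyclin D1 is a known step of their return to it during regeneration.

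The series profiled liver cells taken by perfusion and run on the 10x Chromium 3′ platform, which counts transcripts as unique molecular identifiers (UMIs). One, called the DDC and cMet library here, joined Sox9-CreERT2:Rosa26-mTmG mice, given DDC diet with cMet induced through HTVi for 5 months, to untreated WT mice of day 0. The other, the DDC library, joined Sox9-EGFP mice on DDC diet for 2 weeks to untreated WT mice on normal diet, also of day 0. There were 2 mice per time and the strain was C57BL/6J;129S6/SvEvTac in both libraries. DDC is a diet that injures bile ducts, and Sox9-EGFP is a reporter of Sox9, a gene of bile duct cells and of injured hepatocytes. Cells of different mice and times carry no mark that tells them apart, so each library is 1 pooled sample without replicates, and library, genotype, time and mixture cannot be told apart. No p-value is given. All intervals are exact 95% intervals for counting error alone.

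Of 18316 barcodes in the DDC and cMet library and 8694 in the DDC library, 8099 and 2903 passed a filter of 500 genes, 2000 UMIs and no more than 30% UMIs from mitochondrial genes. Their median depth was 13215 and 29588 UMIs. The label calls the cells hepatocytes. Barcodes with at least 50 Alb UMIs per 10000 and no non-parenchymal gate (Alb-high cells) were 5421 and 1980 of those kept. In the non-mitotic ones the other hepatocyte genes tested, such as Ttr (106 and 120 UMIs per 10000) and Apoa1 (152 and 119), were high as well. Kupffer cells, the resident liver macrophages, were 1045 and 314 barcodes by 10 markers such as Clec4f and Cd5l. The 10 also include general macrophage genes such as C1qa, Csf1r and Adgre1. Other macrophages had no gate of their own and may be in this class. Endothelial cells were 248 and 56 barcodes by 10 markers such as Kdr and Stab2. Within Alb-high cells, 241 and 124 were mitotic by 15 genes such as Mki67 and Top2a, and 4501 and 1681 were non-mitotic. The libraries shared 50 barcode sequences, and 4 of these were kept in both. tdTomato, the reporter carried by the mTmG allele before recombination, had only 2 UMIs in the whole DDC and cMet library, so no comparison was made by it.

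In the mm10 build, 4 members lie on chromosome 4. Cdkn2a (89274471 to 89294653, minus strand) and Cdkn2b (89306299 to 89311039, minus strand) are neighbours there, Cdkn2c lies at 109660876 to 109667189 (minus strand), and Ccne2 at 11191351 to 11204779 (plus strand). Chromosome 7 holds Ccnd1 (144929931 to 144939925), Cdkn1c (143458339 to 143461050) and Ccne1 (38097984 to 38107534), all on the minus strand. Cdkn1c lies 882810 bases from H19, an imprinted long non-coding RNA gene of the fetal liver. Chromosome 6 holds Ccnd2 (127125162 to 127152193, minus strand) and Cdkn1b (134920401 to 134925513, plus strand), and chromosome 17 holds Ccnd3 (47505051 to 47599691, plus strand). No member overlaps another annotated gene on its own strand. Ccnd1, Ccnd2, Ccnd3, Ccne2 and Cdkn1c each overlap a gene on the opposite strand.

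Cdkn2a has a pair of starts. The upstream one gives p19Arf, which protects p53, and the downstream one gives p16Ink4a. Both transcripts share their 3′ end, so the UMI counts cannot separate them. The sequences just before these starts and before that of Cdkn2b are shown because the 2 genes are neighbours and, in the DDC and cMet library, both were higher in Kupffer cells than in Alb-high cells. They are RefSeq sequences on GRCm38.p6, each of 250 bases, 5′ to 3′ on the minus strand, and capitals mark matches to an E2F motif, TTTNNCGC, searched on both strands.
Cdkn2a, upstream start, chr4:89294620-89294869: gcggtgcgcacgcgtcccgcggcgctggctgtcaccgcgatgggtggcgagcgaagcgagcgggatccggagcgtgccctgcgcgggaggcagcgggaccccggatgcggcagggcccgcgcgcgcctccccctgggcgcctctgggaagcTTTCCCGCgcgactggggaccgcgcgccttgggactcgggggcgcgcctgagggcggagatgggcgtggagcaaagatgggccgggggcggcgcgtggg
Cdkn2a, downstream start, chr4:89282193-89282442: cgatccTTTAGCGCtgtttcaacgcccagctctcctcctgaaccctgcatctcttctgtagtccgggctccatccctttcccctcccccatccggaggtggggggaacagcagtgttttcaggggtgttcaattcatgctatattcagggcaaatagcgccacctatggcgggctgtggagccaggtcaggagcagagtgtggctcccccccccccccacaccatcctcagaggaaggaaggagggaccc
Cdkn2b, chr4:89311033-89311282: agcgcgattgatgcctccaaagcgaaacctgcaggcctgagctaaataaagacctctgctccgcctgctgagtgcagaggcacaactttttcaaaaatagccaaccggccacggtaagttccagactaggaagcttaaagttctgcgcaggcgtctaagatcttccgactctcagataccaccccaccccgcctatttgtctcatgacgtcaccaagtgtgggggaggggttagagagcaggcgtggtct
Windows reaching 50 bases past the start were searched in the same way. Such windows were found for 6 of the 10 members, 9 windows in all, and the motif matched in the 2 Cdkn2a windows only. Of the 32851 windows searched, which do not cover every gene or chromosome, 5.17% had a match. A match is a description of these letters and not a site, and no match says only that these letters are not in the window.

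Among the classes of at least 50 cells that are plotted, all 3 D-type cyclins had their highest mean level in endothelial cells of both libraries, and they differed in the order of the other classes. Lymphoid or neutrophil cells (12 in the DDC and cMet library and 20 in the DDC library) and mesenchymal cells (23 and 5) fell under that number. They are given by value for the D-type cyclins, Cdkn1b, Cdkn1c, Cdkn2a and Cdkn2c. Ccnd1, which encodes cyclin D1, was at 3.21 UMIs per 10000 (interval 3.0 to 3.44) in endothelial cells, 3.17 (3.0 to 3.35) in H19-positive Alb-high cells, 2.56 (2.43 to 2.69) in mitotic and 2.42 (2.39 to 2.45) in non-mitotic Alb-high cells, and 0.604 (0.564 to 0.645) in Kupffer cells of the DDC and cMet library. The DDC library had 2.44 (1.99 to 2.95) in endothelial cells, 1.60 (1.55 to 1.65) in EGFP-zero Alb-high cells, 1.51 (1.41 to 1.62) in mitotic and 1.49 (1.46 to 1.52) in non-mitotic Alb-high cells, 1.28 (1.22 to 1.34) in EGFP-positive Alb-high cells and 0.656 (0.596 to 0.721) in Kupffer cells. Kupffer cells were lowest of the plotted classes in both libraries, while the intervals of the top pair in the DDC and cMet library overlapped, and in the DDC library that of mitotic cells overlapped those of EGFP-zero and non-mitotic cells. Of the small classes, lymphoid or neutrophil cells held only 2 and 1 Ccnd1 UMIs in the DDC and cMet library and the DDC library (0.288, 0.0349 to 1.04, and 0.0766, 0.00194 to 0.427), and mesenchymal cells were at 1.42 and 0.974.

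Ccnd2, which encodes cyclin D2, was at 5.48 (5.20 to 5.78) in endothelial cells of the DDC and cMet library and at 5.45 (4.78 to 6.20) in those of the DDC library. Kupffer cells had 0.123 (0.105 to 0.142) and 0.287 (0.247 to 0.330). Non-mitotic Alb-high cells had 0.0198 (0.0173 to 0.0226) and 0.0863 (0.0791 to 0.0940). These 3 classes did not overlap in either library. High Ccnd2 was not particular to endothelial cells, since lymphoid or neutrophil cells were at 4.46 (3.03 to 6.33) and 4.14 (3.11 to 5.40), intervals that overlapped those of endothelial cells, and mesenchymal cells at 3.26 (2.69 to 3.91) and 2.43 (1.58 to 3.59). Ccnd2 was found in 226 of 248 endothelial cells in the DDC and cMet library (91.1%) and in 50 of 56 in the DDC library (89.3%), against 2.87% and 10.8% of non-mitotic Alb-high cells. After thinning to 2000 UMIs per cell these shares were 60.5% and 58.9%, against 0.622% and 1.55%.

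Ccnd3, which encodes cyclin D3, was at 0.739 and 0.766 in endothelial cells, 0.377 and 0.540 in Kupffer cells, and 0.150 and 0.152 in non-mitotic Alb-high cells of the DDC and cMet library and the DDC library. The small classes had higher means than endothelial cells, at 2.30 and 1.30 in lymphoid or neutrophil cells and 0.936 and 1.66 in mesenchymal cells, on 16 to 33 UMIs each. The E-type cyclins were sparse in every class plotted. In the classes plotted, Ccne1 was at most at 0.0738 UMIs per 10000, in H19-positive cells of the DDC and cMet library, and Ccne2 at most at 0.0755, in endothelial cells of that library.

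The Cip/Kip inhibitor Cdkn1b, which encodes p27Kip1, had the same order as Ccnd3 over these 3 classes. It was at 0.774 and 0.742 in endothelial cells, 0.546 and 0.475 in Kupffer cells and 0.160 and 0.182 in non-mitotic Alb-high cells. Of the small classes, lymphoid or neutrophil cells were at 1.44 and 0.766, on 10 UMIs each. Mesenchymal cells were at 0.652 and 0.390, on 23 and 4 UMIs. Cdkn1c, which encodes p57Kip2 and is imprinted, was at 1.06 (0.933 to 1.19) and 1.37 (1.04 to 1.77) in endothelial cells. The highest other class plotted, EGFP-zero Alb-high cells, had 0.0618, with 93 of 167 UMIs in 1 barcode. Mesenchymal cells, not plotted, were at 0.227 and 0.0974, on 8 and 1 UMIs, and lymphoid or neutrophil cells held 0. The 21 H19-positive cells of the DDC library, also not plotted, were at 1.07, with 93 of 103 UMIs in 1 barcode. In the DDC library 28 of the 59 endothelial Cdkn1c UMIs came from 1 barcode.

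Cdkn2a was close to the limit of detection in Alb-high cells. Non-mitotic Alb-high cells held 6 UMIs of it in 110000948 in the DDC and cMet library and 1 in 60602401 in the DDC library, and mitotic Alb-high cells held 0 in both. Kupffer cells held 96 UMIs in 49 of 1045 cells and 20 UMIs in 7 of 314 cells, and endothelial cells 21 in 14 of 248 cells and 5 in 3 of 56 cells. Of the small classes, lymphoid or neutrophil cells held 0 UMIs in 12 cells and 5 UMIs in 5 of 20 cells. Mesenchymal cells held 11 UMIs in 1 of 23 cells and 0 UMIs in 5 cells. Cdkn2b, which encodes p15Ink4b, was at most at 0.0437 in the classes plotted, in endothelial cells of the DDC and cMet library. Cdkn2c, which encodes p18Ink4c, lay in a narrow range over the classes plotted, between 0.112 in Kupffer cells of the DDC and cMet library and 0.267 in mitotic Alb-high cells of the DDC library. Mesenchymal cells, not plotted, were above that range, at 0.765 and 0.779 on 27 and 8 UMIs. Lymphoid or neutrophil cells were at 0.432 and 0.153, on 3 and 2 UMIs.

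**Figure D1:**
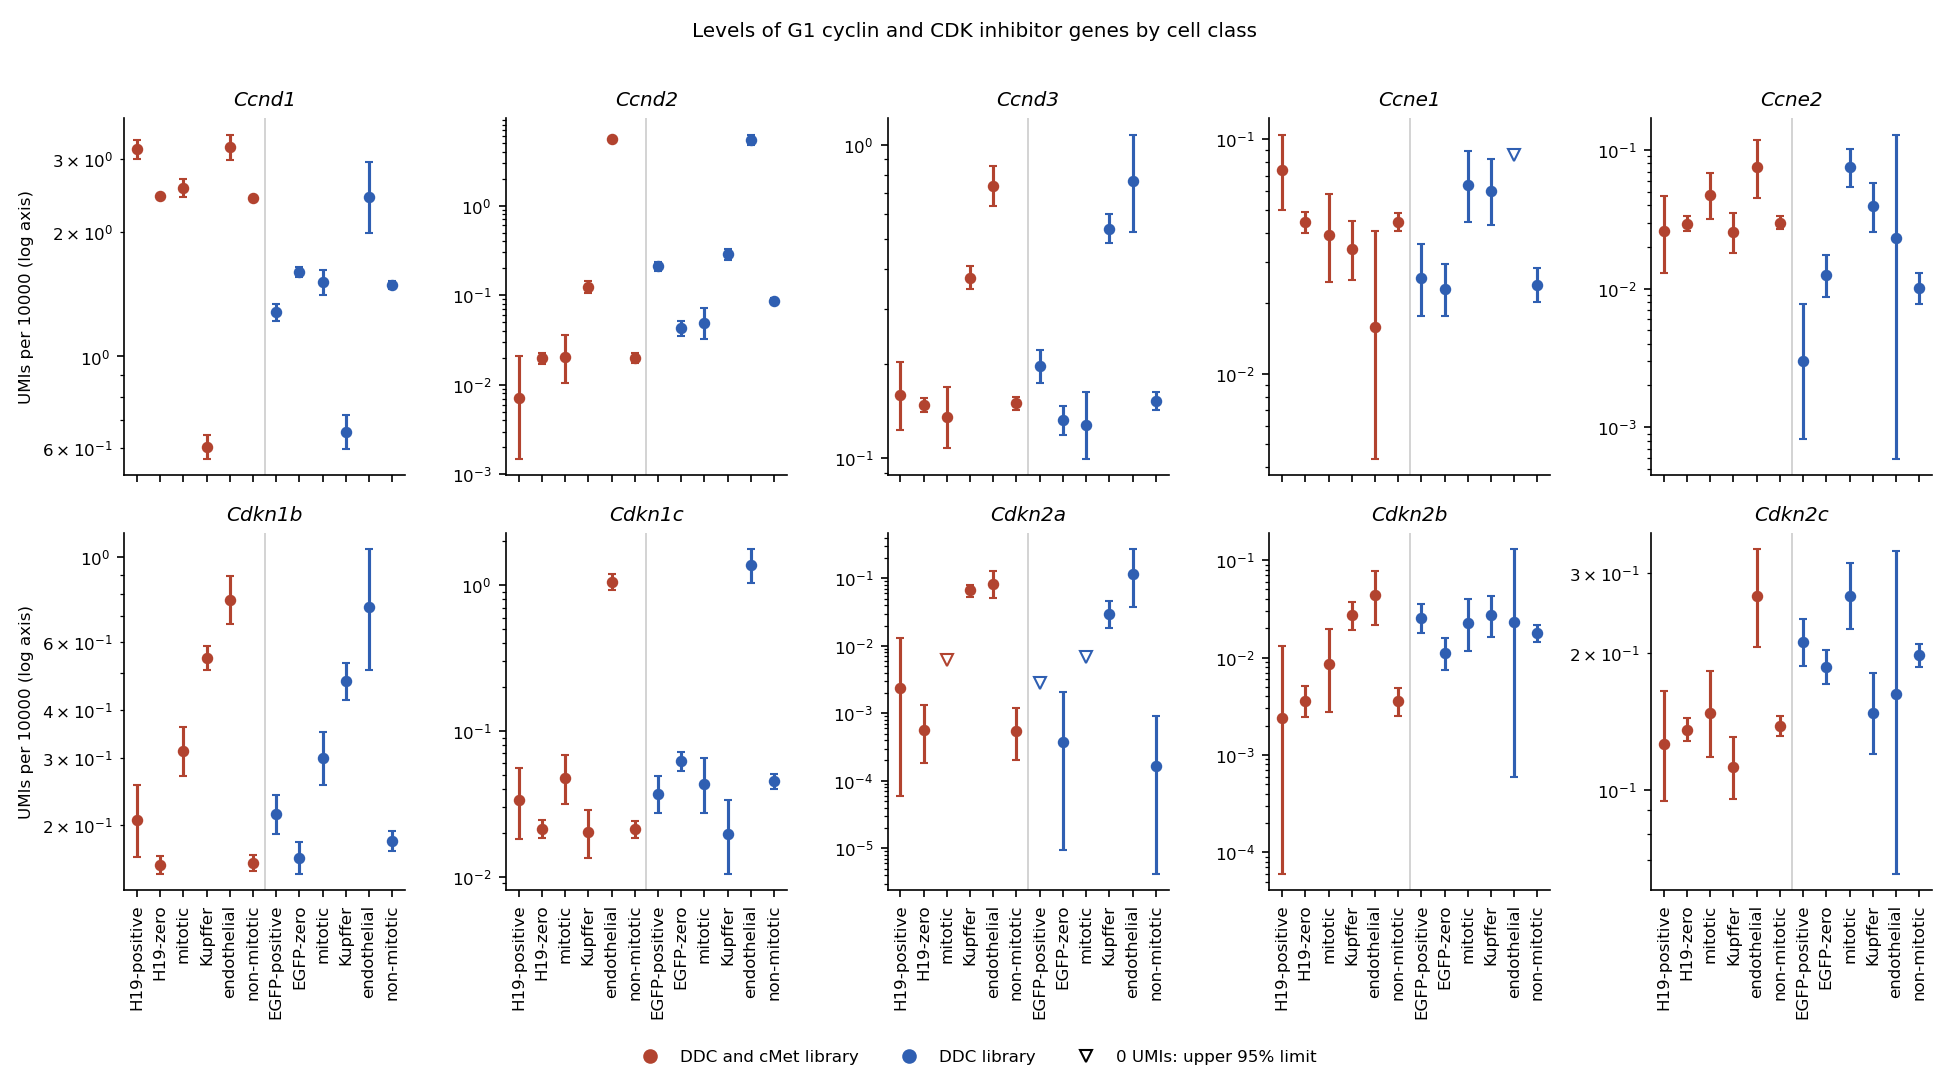
UMIs per 10000 of each member (log axis) in the classes of the DDC and cMet library (red) and the DDC library (blue), with exact 95% counting intervals; open triangles give the upper limit where a class had 0 UMIs. Of the plotted classes, Ccnd2 and Cdkn1c stand highest in endothelial cells, Ccnd1 is lowest in Kupffer cells, and Cdkn2a is at or near 0 in every Alb-high class. Classes under 50 cells are not plotted, among them the 21 H19-positive cells of the DDC library.

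EGFP-positive Alb-high cells (270 cells) differed from EGFP-zero ones (725 cells) most in Ccnd2. Both classes were non-mitotic with at least 10000 UMIs. Ccnd2 was at 0.210 UMIs per 10000 (279 UMIs) in EGFP-positive cells, against 0.0426 (115 UMIs) in EGFP-zero cells, a log2 ratio of 2.30 (1.98 to 2.63). It was found in 24.8% of EGFP-positive cells and 7.72% of EGFP-zero cells, and in 4.81% and 0.690% after thinning to 2000 UMIs. Cdkn2b was at 0.0255 (34 UMIs in 30 cells) and 0.0111 (30 UMIs in 19 cells), a log2 ratio of 1.20 (0.45 to 1.96). These 2 of the 8 members with at least 50 UMIs were at least 2-fold higher, and none was as much lower. Over all genes 5.06% of 11334 were at least 2-fold higher and 2.75% as much lower, or 7.81% in either direction, with a median log2 ratio of 0.17.

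Ccnd1 was lower in EGFP-positive cells, at 1.28 against 1.60 in EGFP-zero cells, a log2 ratio of -0.32 (-0.41 to -0.24). Thinned to 10000 UMIs per cell, Ccnd1 was at 0 in 39.3% of EGFP-positive and 40.7% of EGFP-zero cells, while 4.44% and 9.93% had 5 or more UMIs. The difference was thus in cells with many Ccnd1 UMIs and not in the share without any. Ccnd3 was at 0.197 in EGFP-positive and 0.132 in EGFP-zero cells (log2 ratio 0.57, 0.34 to 0.81), and Cdkn1b at 0.213 and 0.164 (0.38, 0.16 to 0.59). Cdkn2c, at 0.211 and 0.186, and Ccne1, at 0.0255 and 0.0230, had intervals that included 0. Ccne2 had 4 UMIs in EGFP-positive and 34 in EGFP-zero cells, under the minimum for a call. Cdkn1c was at 0.0368 and 0.0618, but 93 of the 167 UMIs of the EGFP-zero cells came from 1 barcode. Of the 20 RB pathway partners listed, 19 had enough UMIs and 1 was at least 2-fold apart. That was Cdk4, the kinase that D-type cyclins activate, at 0.905 in EGFP-positive and 0.424 in EGFP-zero cells (log2 ratio 1.09, 0.98 to 1.21). None of the 14 E2F target genes measured was 2-fold apart.

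The members did not follow EGFP in the same way. Cells with 0, above 0 to under 1, 1 to under 4 and at least 4 EGFP UMIs per 10000 numbered 725, 387, 192 and 78. Ccnd1 declined at each step, at 1.60, 1.48, 1.33 and 1.16. Ccnd2 was at 0.0426, 0.0635 and 0.0690 in the lower 3 bins and at 0.533 (0.464 to 0.609) in the highest. Cdkn2b was likewise highest in the last bin, at 0.0111, 0.0227, 0.0140 and 0.0521 (0.0322 to 0.0796). Ccnd3 went through 0.132, 0.144, 0.175 and 0.248, and Cdkn1b through 0.164, 0.180, 0.192 and 0.263. Alb itself ran over 278, 244, 192 and 130, Sox9 over 0.785, 1.19, 1.74 and 2.79, and Spp1, which encodes osteopontin and is high in bile duct cells, over 16.7, 43.6, 75.3 and 165.

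**Figure D2:**
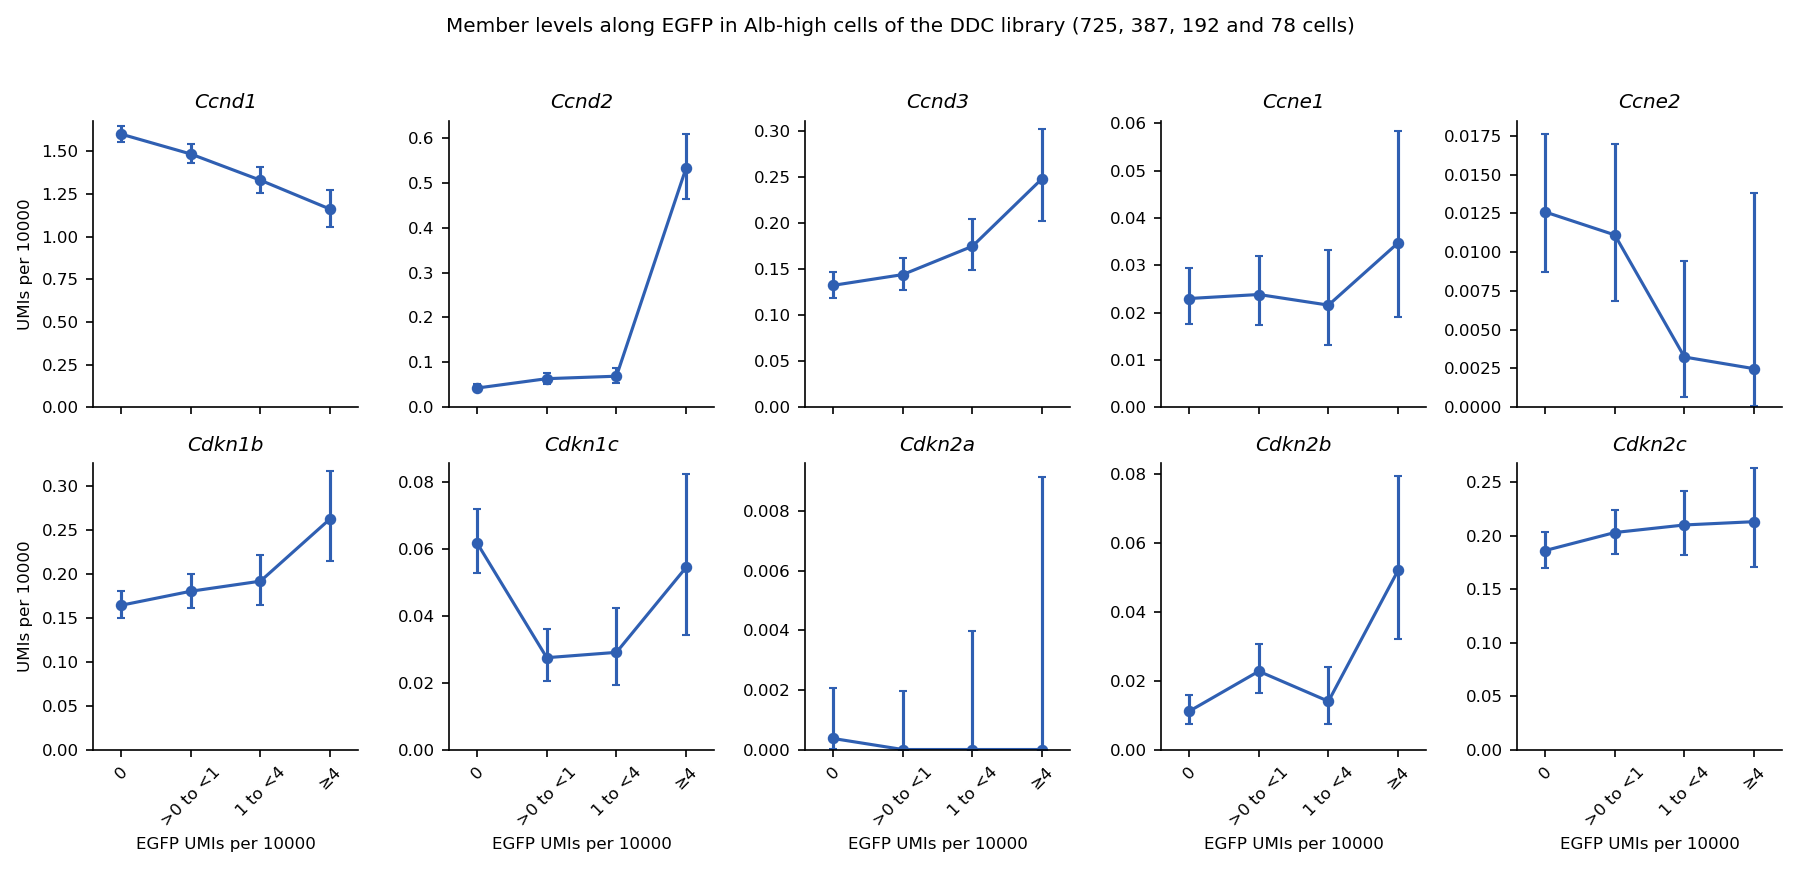
UMIs per 10000 of each member against EGFP UMIs per 10000 in non-mitotic Alb-high cells of the DDC library with at least 10000 UMIs (725, 387, 192 and 78 cells from left to right); bars are exact 95% counting intervals and each vertical axis starts at 0. Ccnd1 declines at each step, with 1.60 in the first bin and 1.16 in the last, while Ccnd2 stays at or under 0.0690 in the lower 3 bins and stands at 0.533 in the highest.

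Markers of other cell types were followed in the same cells. All 8 bile duct genes tested had higher levels in EGFP-positive cells, but the duct keratins Krt19 and Krt7 were near 0 in both classes (0.00301 each in EGFP-positive cells, against 0.000741 and 0.000370 in EGFP-zero cells), and the list's sum of 105 against 17.8 was nearly all Spp1. The 10 endothelial markers summed to 0.288 in EGFP-positive and 0.380 in EGFP-zero cells. Of them 9 were lower and Egfl7, at 0.117 against 0.0515, was higher. The 10 lymphoid or neutrophil markers summed to 0.645 and 0.289, and their part in the member differences was not tested. EGFP-positive barcodes with Alb under the minimum (89 cells) had 0.580 Ccnd2 UMIs per 10000 (0.513 to 0.653), 0.0595 Cdkn2b, 0.344 Cdkn1b and 1.30 Ccnd1. EGFP-zero cells include cells of untreated WT mice, which carry no reporter, so EGFP and diet cannot be told apart.

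H19-positive cells (106 in the DDC and cMet library, and 21 in the DDC library, which is under 50) had more Ccnd1 UMIs per 10000 than H19-zero cells, but not under every alternative in the DDC library. In the DDC and cMet library Ccnd1 was at 3.17 in H19-positive and 2.44 (2.41 to 2.47) in H19-zero cells, a log2 ratio of 0.38 (0.30 to 0.46). Without the H19-positive and the H19-zero barcode with most Ccnd1 UMIs the ratio was 0.25. At 10000 UMIs per cell, 18.9% of H19-positive and 40.0% of H19-zero cells had no Ccnd1 UMI, and 24.5% and 19.2% had 5 or more. The DDC library had Ccnd1 at 2.10 and 1.46, a ratio of 0.53 (0.32 to 0.73), and of 0.28 without those barcodes. Thinned to 2000 UMIs per cell the DDC library ratio turned to -0.17, so its direction did not hold over the alternatives. In the DDC and cMet library, H19 bins with the limits used for EGFP held 2402, 237, 11 and 95 cells. Ccnd1 in these bins was at 2.44, 2.42, 1.05 (0.737 to 1.44) and 3.37 (3.19 to 3.56). It thus did not rise with H19 at each step. Ccne1 in the DDC and cMet library was at 0.0738 in H19-positive and 0.0442 in H19-zero cells (log2 ratio 0.74, 0.16 to 1.27), and Cdkn1b at 0.207 and 0.158 (0.39, 0.06 to 0.70). Of the RB partners 2 of 20 were at least 2-fold higher in that library, Skp2 at 1.31 and Rbl1, an RB relative, at 1.23, and 0 were lower.

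Of the 8 members with at least 50 UMIs in the DDC and cMet library, 0 were at least 2-fold higher in H19-positive cells and 1, Ccnd2, was lower. The background was 1.58% higher and 4.01% lower of 12001 genes, 5.59% in all. Ccnd2 rested on 3 UMIs in H19-positive cells and 175 in H19-zero cells, and its interval (-3.75 to 0.11) included 0. In the DDC library Ccne1, Ccne2 and Cdkn2b had 0 UMIs in H19-positive cells and 130, 57 and 99 in H19-zero cells. They were left out of the calls. There 1 of 6 members was at least 2-fold higher and 0 lower, against 2.45% and 8.50% of 11184 genes, 11.0% in all.

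That member was Cdkn1c, and 1 cell held most of its UMIs. Cdkn1c was at 1.07 UMIs per 10000 in H19-positive cells and 0.0287 in H19-zero cells of the DDC library, a log2 ratio of 5.22 (4.85 to 5.59). Of its 103 UMIs in the H19-positive cells, 93 came from 1 barcode with 75 H19 UMIs and 44923 UMIs in all, and 16 of the 21 cells had none. Without the barcode with most Cdkn1c UMIs in each class the log2 ratio was 1.90, still above 2-fold, on the 10 UMIs of the remaining H19-positive cells. In the DDC and cMet library 11 of 106 H19-positive cells held 14 Cdkn1c UMIs, none more than 2, although these cells held 8170 H19 UMIs. The Cdkn1c level there was 0.0333 in H19-positive and 0.0213 in H19-zero cells (log2 ratio 0.64, -0.25 to 1.43). At 5 or more Cdkn1c UMIs, the DDC library held 3 non-mitotic Alb-high cells of at least 10000 UMIs, of which 2 were H19-positive (93 Cdkn1c with 75 H19 UMIs, and 5 with 10), and the DDC and cMet library held 1, with no H19 UMI.

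**Figure D3:**
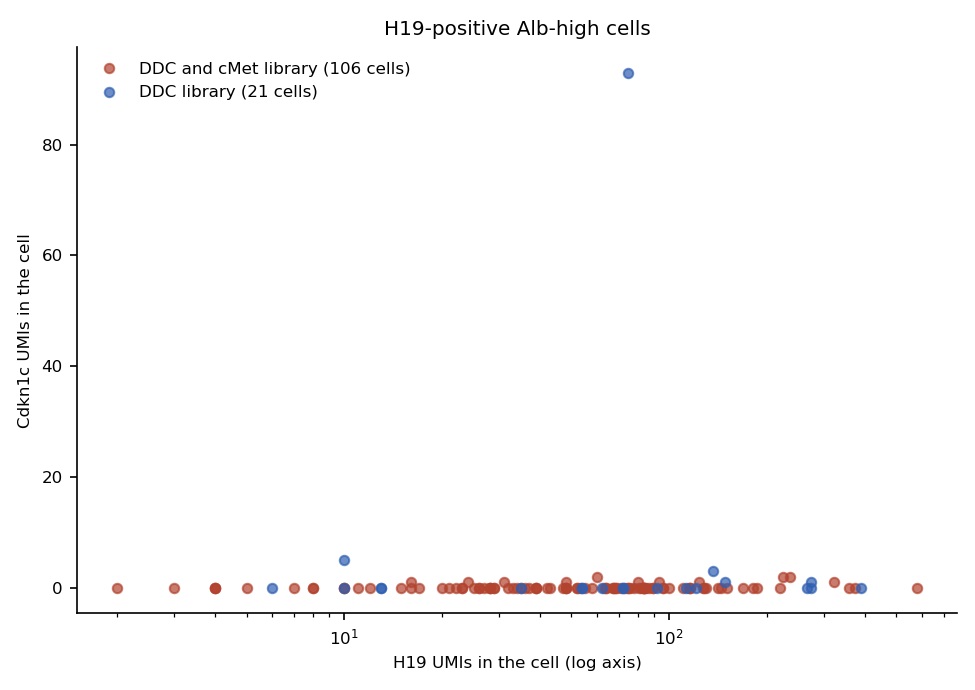
Cdkn1c UMIs against H19 UMIs (log axis) in each H19-positive Alb-high cell of the DDC and cMet library (red, 106 cells) and the DDC library (blue, 21 cells). A single DDC library cell holds 93 Cdkn1c UMIs and 75 H19 UMIs, and every other cell holds 5 Cdkn1c UMIs or fewer.

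Mitotic Alb-high cells had more Ccne2 and Cdkn1b than non-mitotic ones in both libraries, and more Ccne1 in the DDC library. In the DDC library Ccne2 was at 0.0753 (40 UMIs in 17 of 124 cells) in mitotic cells, against 0.0101 (61 UMIs in 49 of 1681 cells) in non-mitotic cells, a log2 ratio of 2.90 (2.29 to 3.50). Of the 40 mitotic UMIs, 11 were in 1 barcode. Ccne1 was at 0.0640 and 0.0239, a ratio of 1.42 (0.84 to 1.97), with 10 of its 34 mitotic UMIs in 1 barcode. These were the 2 of 9 members at least 2-fold higher, against 4.87% of 12061 genes, and 0 were lower, against 6.65% (11.5% in all). In the DDC and cMet library the ratios were smaller. Ccne2 was at 0.0475 in mitotic and 0.0300 in non-mitotic cells (0.66, 0.05 to 1.22) and Ccne1 at 0.0390 and 0.0445 (-0.19, -0.86 to 0.41). Cdkn1c, at 0.0475 (28 UMIs) and 0.0211 (232 UMIs), was the 1 of 8 members at least 2-fold higher there (1.17, 0.55 to 1.74), against 5.31% of 12492 genes, and 0 were lower, against 5.71% (11.0% in all). It was at 0.46 when each cell counted equally.

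Cdkn1b was higher in mitotic cells of both libraries, at 0.312 in mitotic and 0.160 in non-mitotic cells of the DDC and cMet library (log2 ratio 0.97, 0.74 to 1.19) and at 0.299 and 0.182 in the DDC library (0.72, 0.47 to 0.96). Its product p27Kip1 is regulated largely through degradation, and protein was not measured. Ccnd2 in the DDC library was lower, at 0.0489 (26 UMIs) in mitotic and 0.0863 (523 UMIs) in non-mitotic cells (-0.82, -1.45 to -0.25), while in the DDC and cMet library it was at 0.0204 and 0.0198 (0.04, -0.94 to 0.87). Ccnd1 ratios were small, at 0.08 in the DDC and cMet library, with an interval of 0.00383 to 0.15 that lay just above 0, and at 0.02 (-0.08 to 0.13) in the DDC library, and both changed sign under some alternatives. Those of Ccnd3 were -0.14 and -0.25, with intervals that included 0. Cdkn2c had 0.148 in mitotic and 0.138 in non-mitotic cells of the DDC and cMet library (0.09, -0.24 to 0.41), and 0.267 and 0.197 in those of the DDC library (0.44, 0.18 to 0.69). E2F target genes were higher in mitotic cells as a list, with 10 of 16 and 11 of 15 at least 2-fold higher and median log2 ratios of 1.26 and 1.27, beside 0.08 and 0.01 over all genes. Ccna2, which encodes cyclin A2, was at 7.0 and 7.91. Both sides were chosen by their mitotic UMIs. A difference in other cycle genes, such as the E2F targets and E-type cyclins, cannot be told apart from that choice. Of the RB partners 5 of 20 and 6 of 20 were 2-fold higher, among them Cdkn2d, which encodes the INK4 inhibitor p19Ink4d, at 1.83 and 1.78. The list medians were 0.18 and 0.21.

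**Figure D4:**
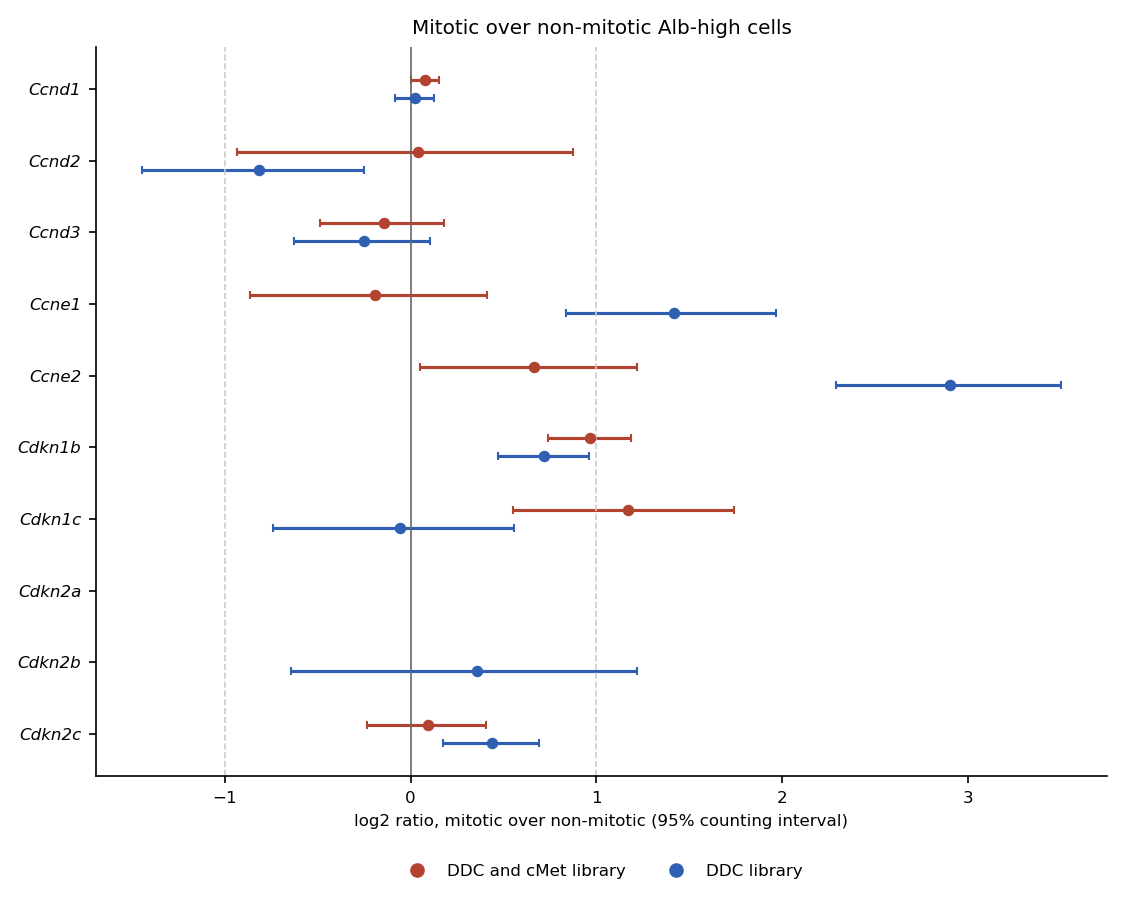
Log2 ratio of each member, mitotic over non-mitotic Alb-high cells, in the DDC and cMet library (red) and the DDC library (blue), with exact 95% counting intervals; dashed lines mark 2-fold and members under 50 UMIs are left out. Ccne2 (2.90) and Ccne1 (1.42) stand to the right in the DDC library, Cdkn1b lies between 0.72 and 0.97 in both, and Ccnd1 lies at 0.02 and 0.08.

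Kupffer cells had less Ccnd1 and more Ccnd2, Ccnd3 and Cdkn1b than non-mitotic Alb-high cells in both libraries. For Ccnd1 the log2 ratios were -2.0 (-2.10 to -1.91) in the DDC and cMet library and -1.18 (-1.32 to -1.04) in the DDC library. Kupffer barcodes held 5.33% and 4.93% of the Alb level of Alb-high cells, and the same share of the Alb-high Ccnd1 level came to 21.4% and 11.2% of the Ccnd1 level in Kupffer cells. The Kupffer class was itself chosen for Alb under 50, which holds the Alb share low. The other hepatocyte genes tested summed to 31.8 and 44.5 in Kupffer cells, against 518 and 514 in non-mitotic Alb-high cells. That is a larger share than for Alb in both libraries, so 21.4% and 11.2% are not upper limits. The log2 ratios of Ccnd2 were 2.63 (2.33 to 2.92) and 1.73 (1.48 to 1.97), those of Ccnd3 1.33 (1.19 to 1.47) and 1.82 (1.64 to 2.00), and those of Cdkn1b 1.77 (1.65 to 1.90) and 1.39 (1.20 to 1.57). The 10 endothelial markers summed to 3.74 and 5.56 in Kupffer cells, against 0.391 and 0.360 in Alb-high cells, with Cdh5 at 2.22 and 2.96 the largest part, and their part in the Ccnd2 difference was not tested. Cdkn1c was at -0.07 (-0.68 to 0.49) and -1.20 (-2.13 to -0.40), and Cdkn2c at -0.30 and -0.42.

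Cdkn2a in the DDC and cMet library was at 0.0665 (0.0538 to 0.0812) in Kupffer and 0.000545 (0.000200 to 0.00119) in Alb-high cells, a log2 ratio of 6.93 (5.75 to 8.41). Cdkn2b was at 0.0270 and 0.00355, a ratio of 2.93 (2.25 to 3.61). In the DDC library Cdkn2a had 20 and 1 UMIs, under the minimum, and Cdkn2b was at 0.0271 and 0.0177 (0.62, -0.19 to 1.35). In the DDC and cMet library 5 of 10 members were at least 2-fold higher and 1 lower, beside 33.1% and 23.1% of 13235 genes, 56.3% in all. Those of the DDC library were 5 of 9 higher and 2 lower, beside 24.0% and 21.7% of 12569 genes, 45.7% in all. Kupffer and Alb-high cells thus differed in a large share of all genes.

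Ccne1 and Ccne2 were higher in Kupffer than in Alb-high cells of the DDC library and not in the DDC and cMet library. Their log2 ratios were -0.39 and -0.23 in the DDC and cMet library and 1.33 and 1.96 in the DDC library. The Kupffer class was not gated on mitotic genes, which summed to 3.39 and 3.65, against 0.123 and 0.113 in non-mitotic Alb-high cells. With only Kupffer cells under 1 mitotic UMI per 10000, the DDC library ratios of Ccne1 and Ccne2 were -0.14 and -0.15, so both changed direction there. Cdkn2a kept its direction, at 6.99 in the DDC and cMet library. Over all Kupffer cells, E2F targets were at least 2-fold higher for 13 of 16 and 12 of 16 genes and lower for 1 each. Their medians were 2.35 and 2.49, beside 0.37 and 0.13 over all genes. The Alb-high side was chosen for few mitotic UMIs and the Kupffer side was not. A difference in cycle genes between the cell types cannot be told apart from that choice. Of the RB partners 9 of 20 and 6 of 20 were higher and 0 lower, led by Skp2, the F-box protein that marks p27Kip1 for degradation, at 3.59 and 3.48.

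Of the members with at least 50 UMIs over both sides, Ccnd2 and Cdkn1c had the highest ratios in endothelial cells of both libraries. The log2 ratios to non-mitotic Alb-high cells were 8.11 (7.91 to 8.33) and 5.98 (5.75 to 6.21) for Ccnd2, and 5.65 (5.39 to 5.91) and 4.93 (4.49 to 5.34) for Cdkn1c, in the DDC and cMet library and the DDC library. Ccnd3 was at 2.30 and 2.33, and Cdkn1b at 2.28 and 2.03. Ccnd1 was at 0.41 (0.31 to 0.51) and 0.71 (0.42 to 0.99). The median of all genes was shifted by 0.80 and 0.53, and relative to it Ccnd1 was at -0.39 in the DDC and cMet library and 0.19 in the DDC library. Cdkn2b in the DDC and cMet library was at 3.62 (11 against 39 UMIs), and Ccne1 was lower at -1.49 (4 against 490 UMIs). In the DDC and cMet library 6 of 9 members were at least 2-fold higher and 1 lower, beside 44.9% and 18.4% of 12593 genes, 63.3% in all. Those of the DDC library were 5 of 8 higher and 0 lower, beside 35.7% and 15.9% of 11111 genes, 51.6% in all. Ccne1 in the DDC library had 0 UMIs in endothelial and 145 in Alb-high cells and was left out of the 8. Ccne2 was among those higher in both libraries, with 1 UMI in endothelial cells of the DDC library, and in the DDC and cMet library its ratio of 1.33 became -1.08 with only cells under 1 mitotic UMI per 10000. Of the RB partners 15 of 20 and 8 of 18 were at least 2-fold higher and 0 and 5 lower. Rb1, which encodes RB itself, led those of the DDC and cMet library at 3.04.

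Between the libraries, non-mitotic Alb-high cells of the DDC and cMet library had more Ccnd1, Ccne1 and Ccne2 and less Ccnd2, Cdkn2b, Cdkn1c and Cdkn2c than those of the DDC library. For Ccnd1 the levels of 2.42 and 1.49 gave a log2 ratio of 0.70 (0.67 to 0.74), beside a median of -0.29 over all genes. At 10000 UMIs per cell, 39.2% and 41.0% of cells had no Ccnd1 UMI, the 90th percentile was 7 and 4 UMIs, and 19.5% and 8.32% of cells had 5 or more. The share of Ccnd1-free cells was thus close in both libraries while cells with many UMIs were more frequent in the DDC and cMet library. Among cells under 10000 UMIs, Ccnd1 was at 1.69 (1.59 to 1.79) and 1.36 (1.18 to 1.57). Mean depth and mixture differ between the libraries and their part in this was not tested.

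Ccne2 was at 0.0300 in Alb-high cells of the DDC and cMet library and 0.0101 in those of the DDC library (log2 ratio 1.58, 1.18 to 1.99), and Ccne1 at 0.0445 and 0.0239 (0.90, 0.63 to 1.17). Ccnd2 was at 0.0198 and 0.0863 (-2.12, -2.36 to -1.89) and Cdkn2b at 0.00355 and 0.0177 (-2.32, -2.88 to -1.77). Cdkn1c was at 0.0211 and 0.0450 (-1.09, -1.35 to -0.84), but at -0.59 without the barcode with most of its UMIs in each library. Cdkn2c was at 0.138 and 0.197 (-0.51, -0.62 to -0.40), Cdkn1b at 0.160 and 0.182 (-0.19, -0.30 to -0.08), and Ccnd3 at 0.150 and 0.152 (-0.02, -0.14 to 0.09). Thus 1 of 9 members was at least 2-fold higher and 3 were lower, beside 5.94% and 12.5% of 13286 genes, 18.5% in all. Of the RB partners 1 of 20 was at least 2-fold higher, E2f2 at 1.11, and 2 were lower, Cdkn1a, which encodes the p53 target p21Cip1, at -3.57, and Cdc25a at -1.04. The list median was -0.61.

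Kupffer cells of the DDC and cMet library also had less Ccnd2 and Cdkn2c than those of the DDC library, and the difference between the classes was not tested. Ccnd1 was at 0.604 in the DDC and cMet library and 0.656 in the DDC library (log2 ratio -0.12, -0.29 to 0.05). Ccnd2 was lower, at 0.123 and 0.287 (-1.23, -1.53 to -0.92), and Cdkn2a higher, at 0.0665 and 0.0302 (1.14, 0.43 to 1.91), with 9 of its 20 DDC library UMIs in 1 barcode. Those 2 members were the 1 lower and 1 higher of 9 members, beside 5.37% and 3.50% of 11095 genes, 8.87% in all. Cdkn2c was at 0.112 and 0.148 (-0.40, -0.77 to -0.02) and Ccnd3 at 0.377 and 0.540 (-0.52, -0.71 to -0.32). In endothelial cells 0 of 6 members were 2-fold apart in either direction, beside 5.31% higher and 2.87% lower of 7349 genes, 8.18% in all. Their Ccnd2 levels of 5.48 and 5.45 had a log2 ratio of 0.01 (-0.19 to 0.21). Among the RB partners, 1 of 20 in Kupffer cells was at least 2-fold lower, Cdkn1a at -1.30. In endothelial cells 3 of 13 were higher, E2f5, Myc and Cdk6.

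**Figure D5:**
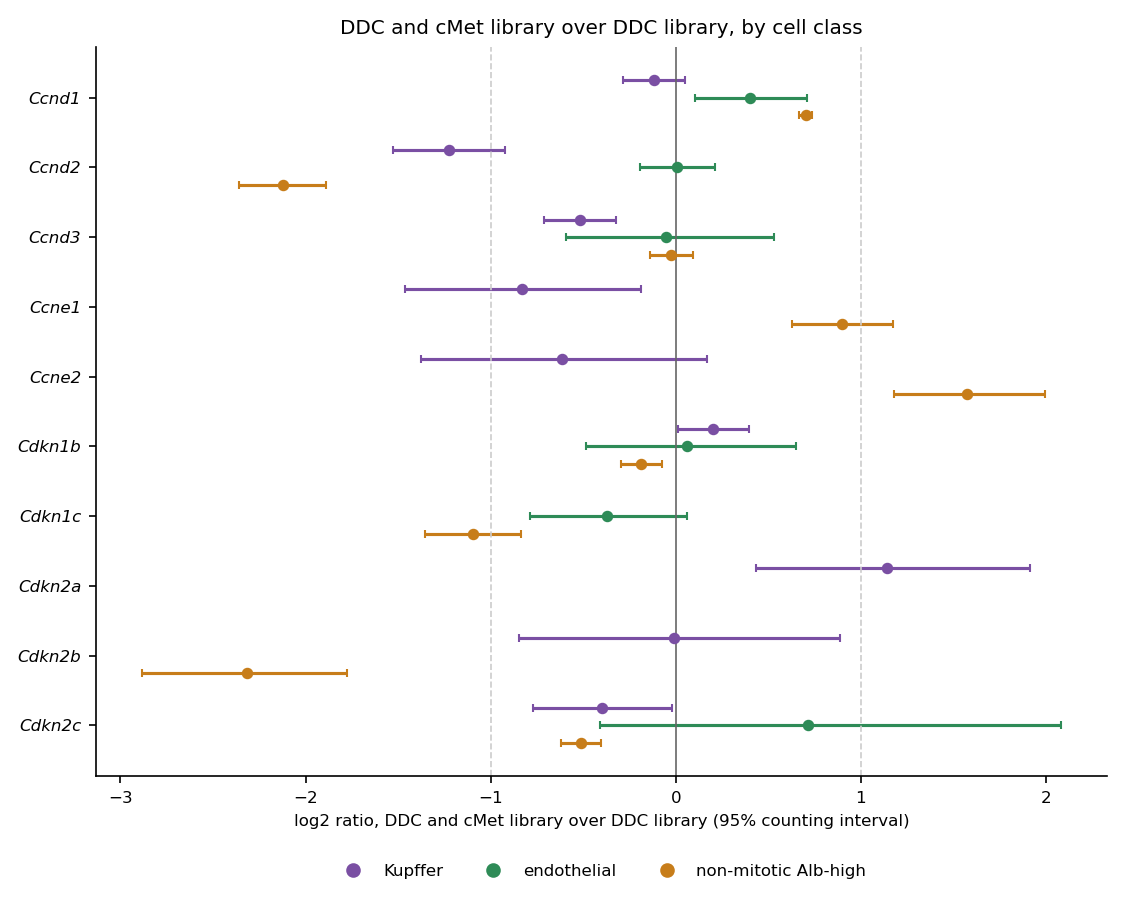
Log2 ratio of each member, DDC and cMet library over DDC library, in Kupffer cells (purple), endothelial cells (green) and non-mitotic Alb-high cells (orange), with exact 95% counting intervals; dashed lines mark 2-fold and members under 50 UMIs in a class are left out. Ccnd2 is at -2.12 in Alb-high, -1.23 in Kupffer and 0.01 in endothelial cells, and Ccnd1 is at 0.70, -0.12 and 0.40.

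The genes most like 3 members in pattern were found by Pearson's r of log2 levels over 10 groups of cells, among 5780 genes. The groups share libraries and differ in depth, with medians from 6327 UMIs in endothelial to 50214 in EGFP-positive cells of the DDC library. Thus r is a description. Ccnd2 and Cdkn1c were far highest in the endothelial groups, so their r mostly ranks genes by how high they are there. The endothelial group of the DDC library has 56 cells. For Ccnd1 they were Stard4 (r = 0.965), Mtss1, Erap1, Efna1 and Ces2g (r = 0.956). For Ccnd2 they were Lix1l (0.995), Rcn1, Tasor, Vezf1 and Ripor1 (0.991). For Cdkn1c they were Degs1 (0.995), Id4, Wdr59, Rfk and Gata4 (0.992).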

How the data were processed

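The authors deposited UMI counts, whole numbers per gene and barcode with no normalization, with gene and barcode lists as text. The matrices were written by Cell Ranger 5.0.1, per the file headers. Seurat 4.0.1, build mm10 and another Cell Ranger version, 6.0.1, are listed in the submitters' processing notes. No column was left unmapped.

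Cells were placed in classes by marker gates on UMIs per 10000, without clustering. Alb-high cells had Alb of at least 50 and no non-parenchymal gate (a marker sum of at least 20 with at least 3 markers present). Kupffer and endothelial cells passed that gate alone with Alb under 50. Mitotic cells had a mitotic sum of at least 5 and at least 3 such genes, and non-mitotic cells a sum under 1. EGFP-positive and H19-positive cells were non-mitotic, with at least 10000 UMIs, at least 1 per 10000 and at least 2 UMIs of the gene, and zero cells had none. No doublet caller was run. Barcodes with Alb and a non-parenchymal gate were left out, and leaving out the 5% of barcodes with most UMIs in each class was an alternative.

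UMIs were summed over a class and divided by its total. Intervals were exact Poisson for levels and exact conditional binomial for ratios. A member was called at least 2-fold apart from 50 UMIs over both sides, and a side with 0 UMIs was set to 3 in ratios. A gene was left out of the calls where that setting made the side with 0 UMIs the higher. Named genes were all members, up to 4 genes with the largest ratio per list among those 2-fold apart, and the 5 genes most like Ccnd1, Ccnd2 and Cdkn1c by log2(UMIs per 10000 + 0.05), among genes reaching 0.5. On simulated Poisson counts of class sums, intervals covered the truth for 95.9% of 11222 unchanged genes (EGFP) and 97.0% of 11769 (endothelial). The intervals assume that same model, and no spread between cells or mice was simulated. The simulation thus checks the calculation only and not the coverage in these data. The members, lists and gates were chosen with earlier results of these data known. Scripts ran with matplotlib 3.10.9, pandas 2.3.3, scipy 1.17.1 and numpy 2.4.6 under Python 3.11.15.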

Additional observations from a re-analysis of the deposited data

Results flagged for a closer look

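Ccne1 and Cdkn1b had library ratios of opposite sign in Kupffer and non-mitotic Alb-high cells. The difference between the classes was not tested. For Ccne1 the log2 ratio of the DDC and cMet library over the DDC library was -0.83 (-1.46 to -0.19) in Kupffer cells. It rested there on 49 and 40 UMIs, in a class not gated on mitotic genes. In non-mitotic Alb-high cells it was 0.90 (0.63 to 1.17). For Cdkn1b, which encodes p27Kip1, the ratio was 0.20 (0.01 to 0.39) in Kupffer cells and -0.19 (-0.30 to -0.08) in non-mitotic Alb-high cells. The median over all genes was -0.11 and -0.29 in these classes. Cdkn1b lay above that median in both, so its directions were opposite in sign only. Each class has 1 library per side, so these are comparisons of those libraries.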

How the results depend on the processing

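No paired analysis was possible because each library is 1 pooled sample and no comparison comes from a test over replicates. Counts of members at least 2-fold apart depended most on thinning to 2000 UMIs per cell, where few members kept 50 UMIs. The count then was 0 for EGFP (of 1 member tested), 0 for H19 in the DDC and cMet library and 0 in the DDC library, 2 and 1 for mitotic cells, 3 for Kupffer cells of the DDC library, 4 and 3 for endothelial cells, and 1 (Ccnd2) and 0 for Alb-high and Kupffer cells between libraries, each pair with the DDC and cMet library first. H19-positive cells of that library had 0 with a non-parenchymal gate at 10 or the mean over cells. Those of the DDC library had 2 with an Alb minimum of 25 or without the barcode with most UMIs. Kupffer cells between libraries had 1 with the gate at 10 or without the 5% of barcodes with most UMIs. Mitotic cells of the DDC and cMet library had 2 with an Alb minimum of 100, 2 with a gene minimum of 20 UMIs and 0 with the mean over cells, and those of the DDC library had 1 with an Alb minimum of 100. Endothelial cells between libraries had 1 (Ccne2) with a gene minimum of 20 UMIs. The shares over all genes under these alternatives are not given beside the counts. A lower count thus cannot be told apart from fewer members tested, and the counts describe the processing only.

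Only non-mitotic Kupffer and endothelial cells, an alternative chosen after seeing the data as was leaving out single barcodes, reversed 3 ratios to Alb-high cells: Ccne1 (-0.14) and Ccne2 (-0.15) in Kupffer cells of the DDC library and Ccne2 (-1.08) in endothelial cells of the DDC and cMet library. The ratio of Ccnd2 in EGFP-positive cells ranged from 1.84 to 3.01 over its alternatives, that of Cdkn2b from 1.03 to 1.71, and that of Ccnd1 between libraries in Alb-high cells from 0.35 to 1.0. Ccne1 in mitotic cells of the DDC library was at 0.49 with a mitotic minimum of 10. In none of these was the cause tested. Depth limits the E-type cyclins, Cdkn2a and Cdkn2b, which rest on few UMIs, and endothelial cells of the DDC library, which number 56.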
